A study of Mus musculus with 22 samples.

Results

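The clustered protocadherins were followed in mouse chondrocytes with and without a conditional deletion of Dnmt1, the maintenance DNA methyltransferase that copies methylation onto newly made DNA. Members were the genes whose symbol began with Pcdha, Pcdhb or Pcdhg followed by a member number or letter, and 58 genes met this rule: 14 in the alpha cluster, 22 in the beta cluster and 22 in the gamma cluster. All 58 were listed among the 34866 genes of each culture table, and 40 were listed among the 23911 genes of the cartilage table (1 alpha, 21 beta and 18 gamma members). The 3 clusters lie in that order on the plus strand of chromosome 18 (build GRCm38), alpha from 36930184 to 37187661, beta from 37264938 to 37524479 and gamma from 37661793 to 37841873.

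Clustered protocadherins are cell-surface adhesion proteins that bind identical copies of themselves on neighbouring cells, and they are best known for giving each neuron its own surface identity. Each alpha or gamma member has its own promoter and its own large first exon, which is spliced to constant exons shared by the whole cluster, whereas a beta member is a single-exon gene. In neurons a promoter is used when its DNA is unmethylated and bound by CTCF, which with cohesin loops it to a distant enhancer, and silent promoters carry DNA methylation.

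RNA was sequenced from 22 samples in 6 groups. Primary chondrocytes from knee articular cartilage of mice at postnatal day 3 to 5 were compared between control cultures, labelled Dnmt1 flox, and conditional knockout (cKO) cultures, labelled Prrx1-Cre;Dnmt1 flox/flox, with 3 samples of each genotype untreated (day 0) and 4 of each after 3 days of the growth factor BMP2 (day 3), whose labelled dose was 100 ng/µl. Cartilage taken from mice at postnatal day 5 was treated with collagenase to remove connective tissue and gave 4 control (flox) and 4 cKO samples, each with 2 male and 2 female mice. All groups carry the loxP-flanked Dnmt1 allele, and the controls are not labelled with Cre. Prrx1-Cre acts in the limb bud mesenchyme from which cartilage, bone, tendon and connective tissue of the limb arise, so the deletion is not limited to chondrocytes. In bulk RNA, a change in the number of cells of a type and a change of RNA per cell cannot be told apart. Culture samples were labelled as biological replicates, with no word on separate animals, so the p-values measure the spread between these samples.

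Dnmt1 itself was checked first. At day 0 it stood between 147.0 and 158.9 CPM in control cultures and between 25.7 and 31.3 in cKO cultures. CPM of genes, members and marker lists were counts divided by library size after TMM scaling, which corrects for differences in library composition. Sums of whole clusters were instead CPM of the unscaled library total, unless TMM scaling is named, so the 2 kinds of value are not on the same scale. At day 3 the ranges were 64.9 to 83.5 and 11.6 to 36.4 CPM, and in cartilage 33.7 to 47.7 and 11.5 to 13.9 CPM. The genotypes did not overlap in any of these settings. Total counts per library were 41749327 to 51741478 at day 0, 14434197 to 18918714 at day 3 and 1100198 to 1888896 in cartilage. Of the cell type markers, 9 chondrocyte genes (Col2a1, Acan, Sox9 and others) summed to 125400 to 132600 CPM in day 0 controls against 45950 to 55910 in cKO, to 85720 to 105300 against 1188 to 16220 at day 3, and to 60640 to 91640 against 27370 to 55670 in cartilage. The 8 muscle markers summed to 1.95 to 2.58 against 27.3 to 37.7 CPM at day 0 and to 0.810 to 1.61 against 86.0 to 999.5 CPM at day 3. The 11 neuron markers summed to 33.0 to 33.8 against 46.1 to 47.2 CPM at day 0 and to 40.8 to 52.6 against 34.5 to 52.5 CPM at day 3, and the neuron-defining Rbfox3 and Snap25 held at most 3 counts in every culture library. Of the neuron list, 6 genes were tested at day 0, with Tubb3, Gap43 and Map2 called higher and Syt1 lower, and 5 at day 3, with Tubb3, Stmn2 and Gap43 higher and Syt1 lower. The 3 osteoclast markers summed to 157.9 to 162.5 against 72.5 to 86.2 CPM at day 0. In cartilage they summed to 120.4 to 436.9 against 56.6 to 114.7 CPM. The osteoclast list was split at day 0, where all 3 were tested, with Mmp9 called higher and Ctsk lower. At day 3, 2 were tested and Acp5 was called higher, and in cartilage all 3 were called lower. The 5 endothelial markers summed to 1.08 to 1.26 against 3.08 to 3.67 CPM at day 0. Of 8 marker lists, the sums did not overlap between genotypes in 8 at day 0 (4 higher and 4 lower in cKO), in 5 at day 3 (3 and 2) and in 3 in cartilage (1 and 2). Their part in the results below was not tested.

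How far single members can be told apart by reads differed between the clusters. In the GENCODE M21 annotation the median alpha member shared 53.5% of its exon bases with other members and the median gamma member 44.7%, while the median for beta was 0. Of all stretches of 31 bases in a member's longest transcript, a median of 36.4% in alpha, 88.2% in beta and 52.6% in gamma occurred in no other annotated gene. Pcdha4 was lowest, at 2.2%, and Pcdhgc5 was highest in gamma, at 78.7%. In the last 500 bases of the transcript, where 3′ libraries read, all 14 alpha members and 21 of 22 gamma members had under 10% unique stretches, against 1 of 22 beta members (Pcdhb21). Values of single alpha and gamma members therefore depend on how shared reads were divided among genes, and cluster sums are given beside them. Symbol Pcdha11 was carried by 2 gene IDs, of which ENSMUSG00000007440 starts where RefSeq lists Pcdha10, and ENSMUSG00000102206 is the other one. Of 5 annotated genes outside the rule that share stretches with the members, Gm42416, Gm37013, Gm37388 and Gm36858 held at most 7 counts in any culture library, and Gm38182 was not analysed here.

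**Figure D1:**
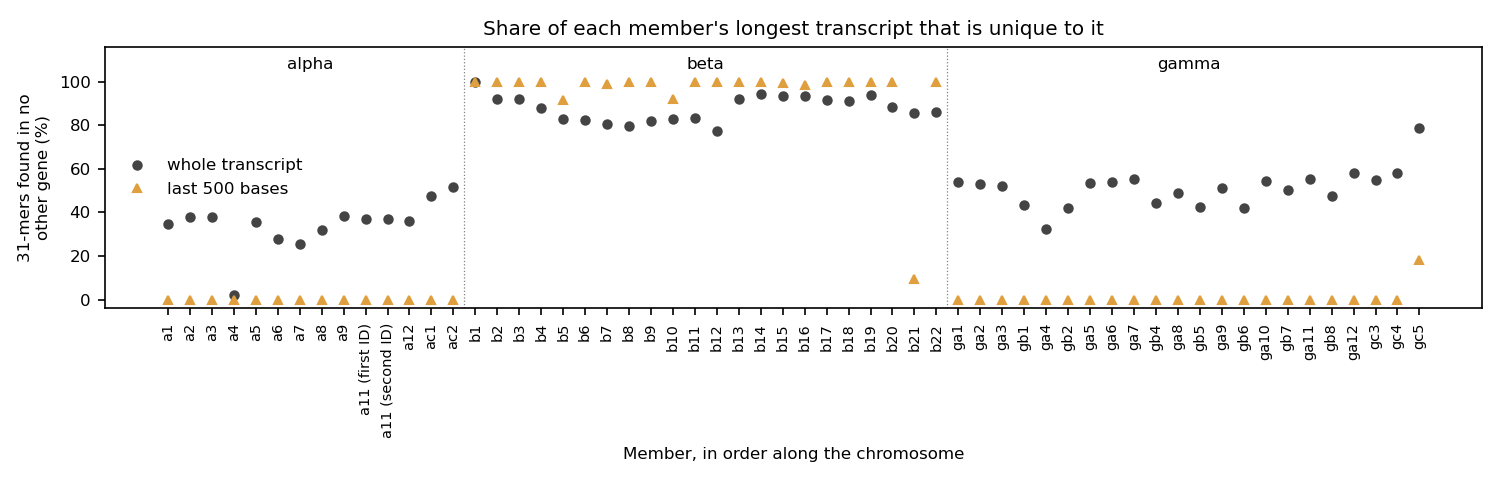
Share (%) of 31-base stretches in each member's longest transcript that occurred in no other annotated gene, for the whole transcript (dots) and its last 500 bases (triangles), with members in chromosomal order. Beta members were largely unique, whereas the last 500 bases of all alpha members and of 21 of 22 gamma members were shared.

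The level of the whole clusters was gamma over beta over alpha in the cultures. Summed over a cluster's members, as CPM of the library total, control cultures at day 0 held 0.661 ± 0.112 (SD, n = 3) for alpha, 26.9 ± 1.85 for beta and 156 ± 2.36 for gamma. The cKO cultures held 1.22 ± 0.150, 23.8 ± 1.07 and 181 ± 5.59 (SD, n = 3). The alpha and gamma sums did not overlap between genotypes and were higher in cKO, whereas the beta sums met at 24.9 CPM, the lowest control and the highest cKO library. After TMM scaling, which corrects for differences in library composition, the beta sums were also apart, at 26.1 to 29.7 CPM in control and 21.9 to 24.2 CPM in cKO.

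At day 3 all 3 sums were higher in every cKO library than in every control library. The alpha sum was 5.53 ± 0.981 CPM in control and 22.8 ± 12 in cKO (SD, n = 4), a ratio of 4.12. The beta sum was 81.1 ± 8.48 against 140 ± 18.3 CPM, a ratio of 1.72, and the gamma sum 437 ± 46.7 against 518 ± 14.7 CPM, a ratio of 1.18. The alpha sum of cKO replicate 4 was 40.5 CPM, far above the 13.8 to 18.5 CPM of the other cKO libraries. After TMM scaling these 3 ratios were 4.06, 1.67 and 1.14, but the highest control and lowest cKO gamma sums then lay at 496 and 486 CPM and so overlapped. These sums were described without a test.

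**Figure D2:**
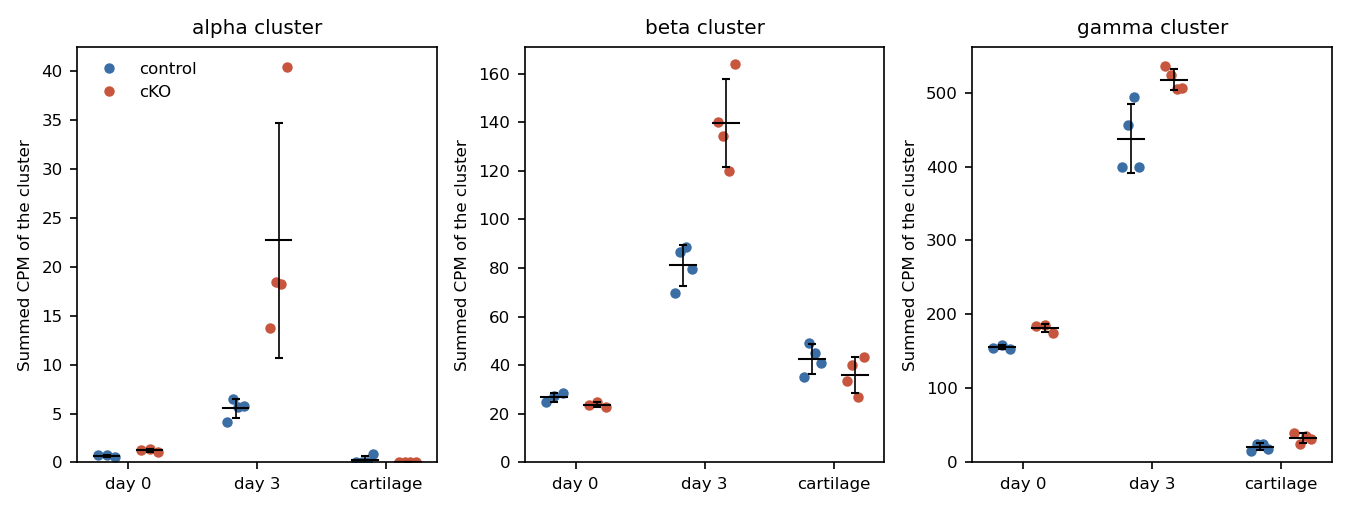
Summed CPM of each cluster per library (dots) with the mean and SD (black) for control and cKO samples at day 0 (3 and 3), at day 3 (4 and 4) and in cartilage (4 and 4), each panel on its own scale from 0. The 3 sums were higher in all cKO than in all control libraries at day 3, with cKO replicate 4 apart in alpha. The beta sum showed no such separation at day 0. Cartilage sums are of whole-number counts. Estimated counts of the same libraries gave mean gamma sums of 182 CPM in control and 141 CPM in cKO.

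The alpha cluster was nearly silent in untreated control chondrocytes. In control cultures at day 0, 9 of 14 alpha members held at most 3 counts in every library, the floor used here, and 2 of 14 passed the filter on low counts. The first of the Pcdha11 genes (ENSMUSG00000007440) held 2, 0 and 0 counts in the control libraries and 16, 15 and 17 in the cKO libraries. Its genotypes did not overlap, and against the floor it was at least 5.33-fold higher in cKO. It passed the filter through its cKO libraries alone, so no p is given for it. The second Pcdha11 gene (ENSMUSG00000102206) did not pass the filter and held 11, 3 and 4 counts in control and 0, 3 and 4 in cKO, with overlap. Pcdhac2, one of the C-type members, which neurons use more uniformly than the others, had 0.336, 0.386 and 0.221 CPM in control and 0.230, 0.308 and 0.334 CPM in cKO. Its groups overlapped (log2 fold change -0.11 ± 0.33 SE, edgeR adjusted p = 0.792). The other C-type member, Pcdhac1, had 0 counts in all 6 libraries. For reference, of the 15530 genes tested at day 0, 64.5% were called, with 33.0% higher in cKO and 31.6% lower.

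After 3 days of BMP2 the alpha members other than C-type were detected in cKO cultures, and most of them were at the floor in controls. Summed over these 12 members, the scaled CPM were 1.54, 1.06, 2.17 and 1.89 in control and 12.6, 16.9, 16.5 and 42.1 in cKO. Every cKO library was several times above every control library. Of the 14 alpha members, 8 held at most 3 counts in every control library, against 1 in the cKO libraries.

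Pcdha8 had 0 counts in all 4 control libraries and 32, 73, 82 and 122 counts in the cKO libraries, at least 22.7-fold higher against the floor. Pcdha4 held 2, 0, 3 and 2 counts in control and 20, 17, 47 and 38 in cKO, at least 8.98-fold higher. Almost none of the Pcdha4 transcript is unique to it when all annotated genes are counted, so its reads are uncertain. It shared 49.7% of its exon bases with other members, near the alpha median of 53.5%. The first Pcdha11 gene, already higher in cKO before treatment, had 0.351, 0.445, 0.619 and 0.405 CPM in control and 4.19, 6.40, 4.47 and 16.2 CPM in cKO. That was a 16.8-fold difference (log2 4.07), with no overlap of the groups. All 5 alpha members called higher, these 3 with Pcdha9 and Pcdha12, passed the filter only through their cKO libraries, so their calls are given as counts and no p is printed.

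Pcdhac2 went the other way. It stood at 2.67, 5.62, 3.53 and 4.05 CPM in control and at 0.523, 0.756, 1.02 and 0.978 CPM in cKO, so that every control library was above every cKO library. It was 4.81-fold lower in cKO (log2 -2.27 ± 0.31 SE, edgeR adjusted p = 0.000521), and it reached the filter's minimum in 4 of 4 control and 3 of 4 cKO libraries. It made up 62.0 to 84.2% of the cluster's counts in control libraries and 2.27 to 5.83% in cKO libraries. Pcdhac1 was at 0 counts in 7 of 8 libraries and at 2 counts in cKO replicate 4.

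In all, 6 of 14 alpha members passed the filter at day 3, and 5 were called higher and 1 lower, where over all 13924 genes in the test the calls were 25.5% higher and 22.6% lower (48.1% in all). Because the 5 could pass only through their cKO libraries, this count supports nothing by itself. Without a filter all 14 were tested, and 10 were called higher and 1 lower, against 16.7% higher and 13.5% lower (30.2% in all) over all genes. DESeq2 called 11 of 13 higher and 1 lower, against 22.9% and 18.1% (41.0% in all). At day 0 the fit without a filter called 2 of 11 alpha members higher and 0 lower (3 with an unadjusted p under 0.05), against 21.6% and 20.3% (42.0% in all). The 8 members that did not pass included Pcdha2, Pcdha3, Pcdha6 and Pcdha7, each with 0 counts in every control library and 2 to 45 counts in every cKO library. In 11 of the 12 members other than C-type, cKO replicate 4 was the highest cKO library. Among cKO libraries it also had the lowest chondrocyte sum (1188 CPM, the others 11370 to 16220) and the lowest muscle sum (86.0 against 585.7 to 999.5 CPM). Its sum of 3 osteoclast markers was the highest (375.8 against 99.2 to 116.2 CPM), and its Dnmt1 level was the lowest (11.6 against 22.9 to 36.4 CPM). Its neuron sum (52.5 against 34.5 to 42.1 CPM) and blood sum (14.6 against 6.70 to 6.86 CPM) were also the highest. Its Schwann or glia sum was the lowest (2.69 against 3.1 to 4.5 CPM). The part of these differences in the alpha values was not tested. Without that library, 5 of 6 alpha members tested were called higher and 1 lower. Over all genes 28.8% were called higher and 26.4% lower (55.1% in all). The 5 could again pass the filter only through their cKO libraries, so this count also supports nothing by itself. Without cKO replicate 4 the log2 difference of the first Pcdha11 gene was 3.43 in place of 4.07.

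**Figure D3:**
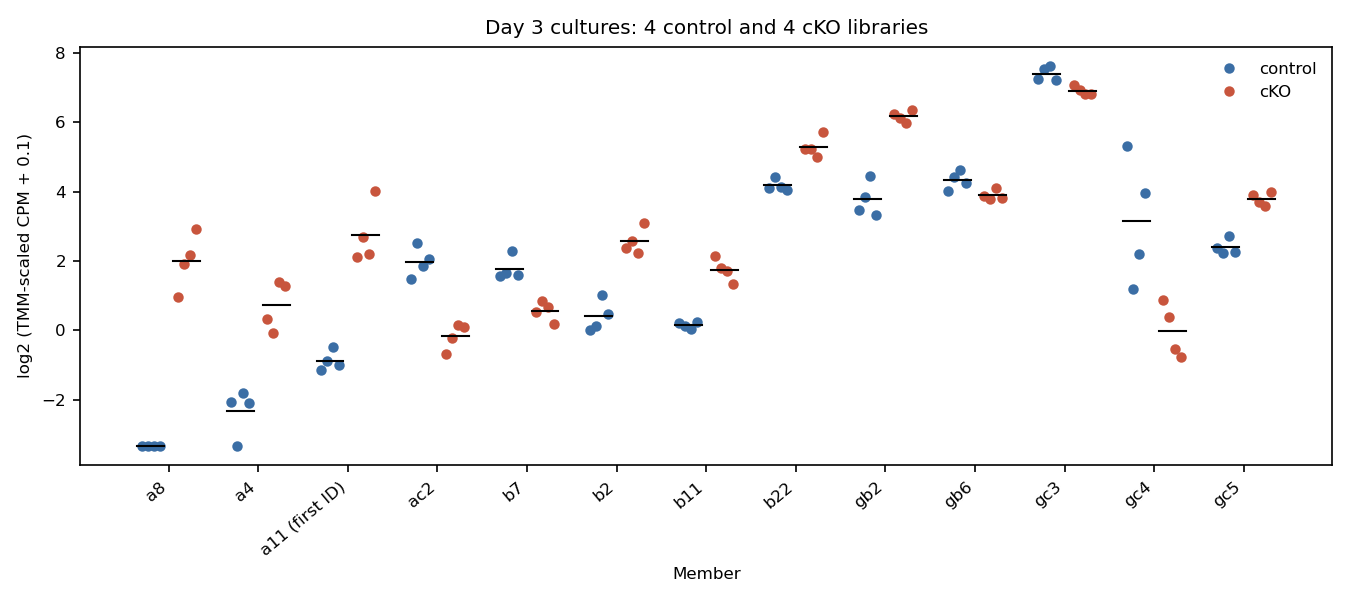
Level in each of the 4 control and 4 cKO libraries at day 3, as log2 of TMM-scaled CPM plus 0.1, for 13 members, with the mean of each group as a line. Pcdha8, Pcdha4 and the first Pcdha11 gene were low in all control libraries, Pcdhac2, Pcdhb7, Pcdhgc3 and Pcdhgc4 were lower in cKO, and Pcdhgc4 spread widely among controls.

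Among beta members few were called higher in cKO before treatment. At day 0, 19 of 22 beta members were tested, 1 was called higher and 6 lower, where 33.0% of all genes were called higher and 31.6% lower, so the share called lower was that of all genes. Of the 19, 4 had a positive log2 difference. Their median log2 difference was -0.35, against 0.01 over all genes tested. Beta genes are single-exon homologs whose reads are mostly unique, and their proteins take part in the same cell-surface recognition units as the alpha and gamma proteins.

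Pcdhb7 had 1.11, 1.73 and 1.44 CPM in control and 0.713, 0.902 and 0.538 CPM in cKO, 2.0-fold lower without overlap (log2 -1.0 ± 0.25 SE, edgeR adjusted p = 0.00647). Pcdhb13 had 1.20, 0.933 and 0.996 CPM against 0.759, 0.374 and 0.445 CPM, 1.99-fold lower without overlap (edgeR adjusted p = 0.0124). Both kept their call whichever library was left out.

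Pcdhb22, the beta member with the most reads, had 5.35, 5.16 and 6.29 CPM in control and 3.87, 4.77 and 3.82 CPM in cKO. The groups did not overlap, and it was 1.35-fold lower (edgeR adjusted p = 0.0134), a call lost without control replicate 3 (adjusted p = 0.0552, log2 -0.34). Pcdhb21 was 1.94-fold lower (log2 -0.95 ± 0.35 SE, edgeR adjusted p = 0.0379). Its call was lost when any one of 5 libraries (all 3 controls, cKO replicates 1 and 3) was left out, at adjusted p between 0.0646 and 0.0970. Pcdhb16, also called lower, lost its call without cKO replicate 2 or 3 or control replicate 1 or 2, at adjusted p up to 0.126.

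Among the other abundant beta members, Pcdhb14 had 2.58, 3.29 and 3.19 CPM in control and 3.57, 3.69 and 3.52 CPM in cKO, without overlap (log2 0.25 ± 0.12 SE, edgeR adjusted p = 0.0996). Pcdhb17 had 3.31, 3.79 and 4.47 CPM against 3.29, 3.21 and 2.89 CPM (log2 -0.30 ± 0.13 SE, edgeR adjusted p = 0.0746). Neither passed the threshold with all libraries. The 1 beta member that rose was Pcdhb2, from 0.440, 0.426 and 0.620 CPM in control to 0.852, 1.08 and 0.816 CPM in cKO (log2 0.88 ± 0.24 SE, edgeR adjusted p = 0.0106).

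After BMP2 more beta members were called higher than lower. At day 3, 20 of 22 beta members were tested, 8 were called higher and 2 lower, where 25.5% of all genes were called higher and 22.6% lower, and their median log2 difference was 0.33 against 0.01 over all genes. Without cKO replicate 4, 7 were called higher and 1 lower, against 28.8% and 26.4% of all genes.

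Pcdhb2 had 0.912, 1.0, 1.92 and 1.28 CPM in control and 5.06, 5.90, 4.63 and 8.44 CPM in cKO, a 4.67-fold difference without overlap (log2 2.22 ± 0.30 SE, edgeR adjusted p = 0.000500). Pcdhb11 had 1.05, 1.0, 0.929 and 1.08 CPM against 4.30, 3.38, 3.18 and 2.45 CPM, 3.26-fold higher without overlap (edgeR adjusted p = 0.000423). Pcdhb12 had 1.33, 1.28, 1.67 and 1.42 CPM against 4.60, 5.09, 4.15 and 3.48 CPM, 3.03-fold higher without overlap (edgeR adjusted p = 0.000261). All 3 were called whichever library was left out.

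The abundant Pcdhb22 had 17.1, 21.2, 17.5 and 16.5 CPM in control and 37.4, 37.1, 31.6 and 52.6 CPM in cKO. It was 2.20-fold higher without overlap (log2 1.13 ± 0.16 SE, edgeR adjusted p = 0.000685), the reverse of its direction at day 0. Pcdhb17 had 9.47, 12.4, 11.6 and 10.5 CPM against 19.1, 21.3, 16.9 and 39.4 CPM, also without overlap (log2 1.14 ± 0.26 SE, edgeR adjusted p = 0.00734). Pcdhb19 had 6.32, 7.52, 9.78 and 7.23 CPM against 10.9, 9.32, 7.11 and 11.4 CPM, with overlap (log2 0.33 ± 0.19 SE, edgeR adjusted p = 0.189). Pcdhb3, Pcdhb14 and Pcdhb15 were the other members called higher, at log2 differences of 1.58, 0.49 and 1.29. Pcdhb14 lost its call without any one of 7 of the 8 libraries (all but control replicate 4), at adjusted p up to 0.0941.

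Pcdhb7 was the beta member called lower on both days. At day 3 it had 2.88, 3.06, 4.77 and 2.90 CPM in control and 1.34, 1.71, 1.51 and 1.04 CPM in cKO, 2.42-fold lower without overlap (edgeR adjusted p = 0.00329). Pcdhb4 was the other one called lower at day 3 (log2 -1.01 ± 0.36 SE, edgeR adjusted p = 0.0469), and it lost its call without any one of cKO replicates 2 to 4 or control replicates 2 to 4, at adjusted p up to 0.114. Pcdhb1, at the chromosomal start of the cluster, had 0 counts in every control library and 3 to 6 in the cKO libraries and was not tested.

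**Figure D4:**
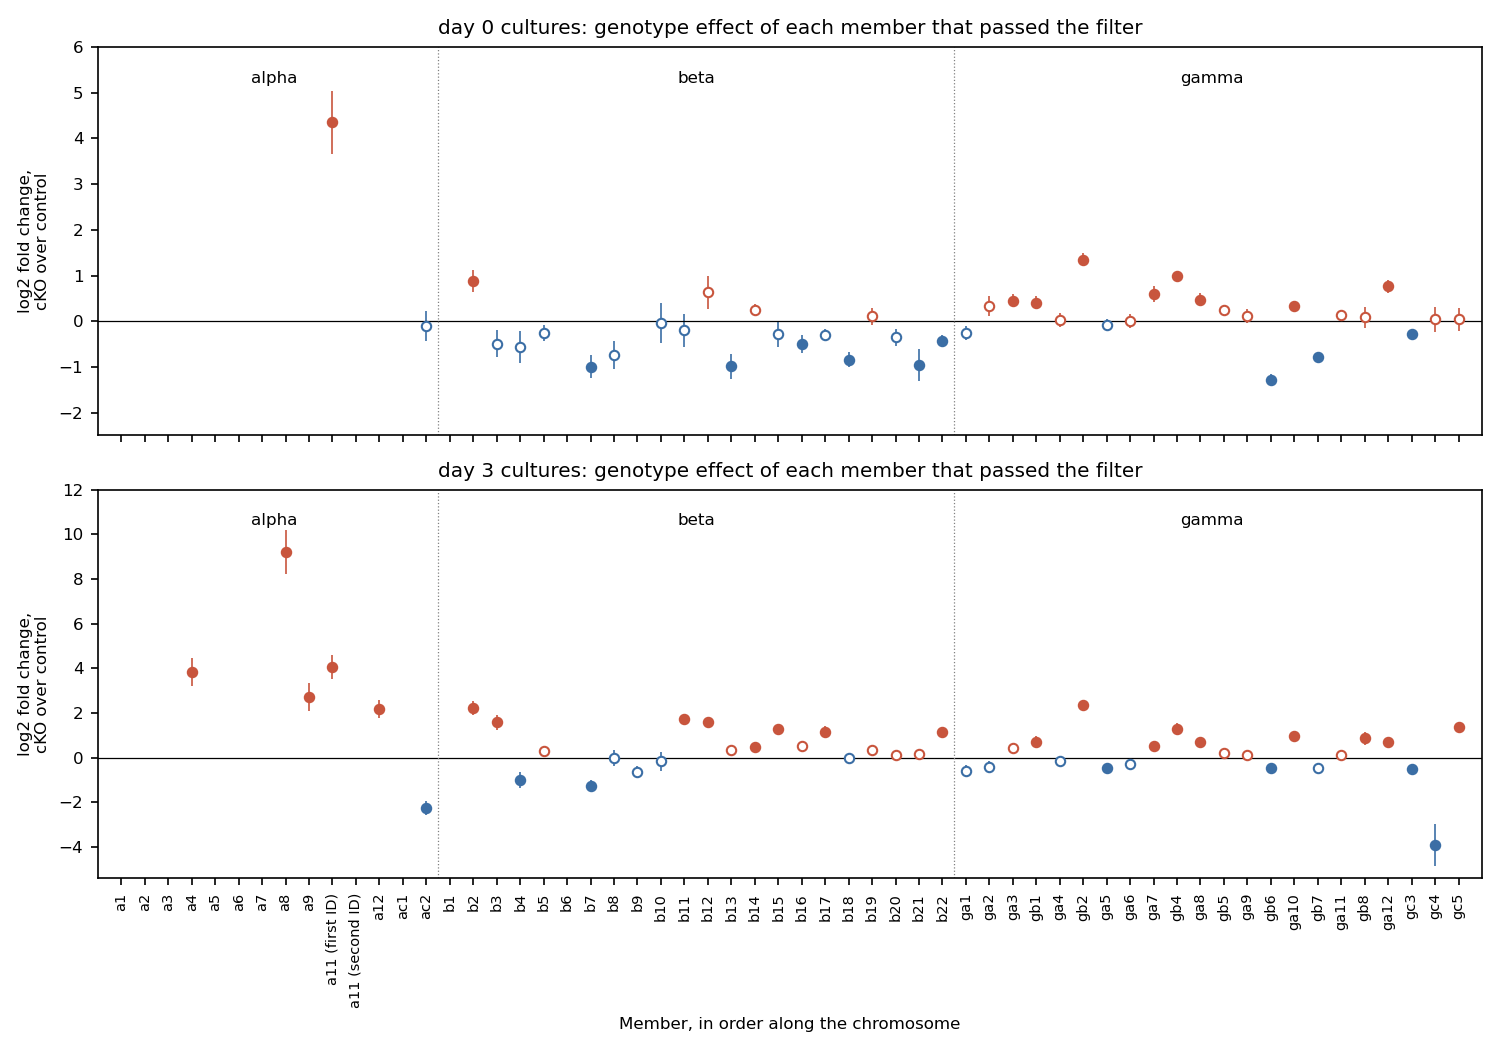
Log2 fold change of cKO over control (y axis, bars are the SE) for each member that passed the filter, in chromosomal order, at day 0 and at day 3, with filled symbols for members called at an adjusted p under 0.05. Beta members lay mostly below 0 at day 0 and above 0 at day 3, and gaps mark members that were not tested.

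In the gamma cluster members moved in both directions on both days. All 22 gamma members were tested on both days. At day 0, 8 were called higher and 3 lower, and at day 3, 9 higher and 4 lower. The genotypes did not overlap in 10 of 22 gamma and 10 of 19 beta members tested at day 0, where 70.3% of all genes did not, and in 8 of 22 and 8 of 20 at day 3, where 48.0% did not. The median log2 differences were 0.12 and 0.15. The 8 of 22 called higher at day 0 are close to the 33.0% over all genes, and the 3 of 22 called lower are below the 31.6%. At day 3, where the shares of all genes were 25.5% and 22.6%, the 9 of 22 called higher are above the first and the 4 of 22 called lower are close to the second. With all 14 cultures in one fit 4 were called higher and 2 lower at day 0, where 21.1% of all genes were called higher and 20.9% lower (42.0% in all).

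Pcdhgb2 had the largest rise. At day 0 it had 2.58, 2.68 and 2.59 CPM in control and 8.31, 5.94 and 5.75 CPM in cKO, 2.54-fold higher without overlap (log2 1.35 ± 0.15 SE, edgeR adjusted p = 5.08e-05). At day 3 it had 11, 14.1, 21.7 and 10.0 CPM against 74.7, 68.8, 63.1 and 81.8 CPM, 5.06-fold higher without overlap (log2 2.34 ± 0.23 SE, edgeR adjusted p = 0.000116). It made up 2.44 to 4.38% of the gamma counts in day 3 control libraries and 13 to 15.1% in cKO libraries.

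Pcdhgb4 had 3.82, 4.30 and 3.92 CPM in control and 9.16, 7.13 and 7.57 CPM in cKO at day 0, 1.98-fold higher without overlap (edgeR adjusted p = 6.03e-05). Treated cultures had 8.35, 15.0, 22.1 and 12.7 CPM against 29.3, 34.9, 31.5 and 45.5 CPM, 2.43-fold higher without overlap (edgeR adjusted p = 0.00514). Pcdhga10 rose from 13.2, 14.3 and 11.8 CPM to 15.4, 16.2 and 17.7 CPM at day 0 (log2 0.33 ± 0.08 SE, edgeR adjusted p = 0.00696). These members were above every control library in every cKO library.

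Pcdhga8, one of the most abundant gamma members, had 27.9, 22.6 and 28.6 CPM in control and 35.8, 44.4 and 29.6 CPM in cKO at day 0 (log2 0.47 ± 0.14 SE, edgeR adjusted p = 0.0149). The groups did not overlap, but the call was lost without control replicate 2 (adjusted p = 0.0611, log2 0.37). Treated cultures had 21.8, 26.5, 16.8 and 25.9 CPM against 28.3, 39.0, 40.6 and 39.6 CPM, 1.62-fold higher without overlap (edgeR adjusted p = 0.00912).

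Pcdhgb6 fell most at day 0, from 10.9, 13.1 and 10.4 CPM in control to 5.29, 3.98 and 4.78 CPM in cKO. That was 2.45-fold lower without overlap (log2 -1.29 ± 0.12 SE, edgeR adjusted p = 1.84e-05). At day 3 it had 15.9, 21.5, 24.4 and 19.1 CPM against 14.6, 13.8, 17.0 and 14 CPM, with overlap (log2 -0.45 ± 0.14 SE, edgeR adjusted p = 0.0282). The day 3 call was lost without cKO replicate 1 or 2 or control replicate 2 or 3, at adjusted p up to 0.0718.

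The 7 gamma b members, a subfamily interleaved with the gamma a members, showed a split by position at day 0 that was noticed after their values were seen. In chromosomal order, Pcdhgb1, Pcdhgb2 and Pcdhgb4 were called higher (log2 0.40, 1.35 and 0.98), Pcdhgb5 was not called (0.25), Pcdhgb6 and Pcdhgb7 were called lower (-1.29 and -0.79), and Pcdhgb8, a polymorphic pseudogene, was not called (0.09). At day 3 Pcdhgb1, Pcdhgb2, Pcdhgb4 and Pcdhgb8 were called higher (0.72, 2.34, 1.28 and 0.86), Pcdhgb6 was called lower, and Pcdhgb7 had a log2 difference of -0.45 (edgeR adjusted p = 0.0511). Summed over the 7, the scaled level ran from 31.8 to 37.5 CPM in control cultures and from 32.0 to 37.7 CPM in cKO cultures at day 0, and from 58.5 to 107.0 against 150.7 to 179.7 CPM at day 3. The sums overlapped at day 0 and were apart at day 3.

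The 3 gamma C-type members moved in different directions. Pcdhgc3, the member with the highest level per kilobase in these cultures (10.4 CPM per kb in control and 8.60 in cKO at day 0), had 49.4, 49.5 and 46.7 CPM in control and 41.0, 38.1 and 41.8 CPM in cKO at day 0. It was 1.20-fold lower without overlap (log2 -0.27 ± 0.05 SE, edgeR adjusted p = 0.000957). After BMP2 it had 150, 186, 196 and 148 CPM against 133, 120, 112 and 113 CPM, 1.42-fold lower without overlap (edgeR adjusted p = 0.00616). It made up 36.2 to 39.6% of the gamma counts in day 3 control libraries and 20.9 to 26.1% in cKO libraries.

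Pcdhgc5, whose transcript is the most unique of the cluster, did not differ detectably at day 0, with 0.944, 1.44 and 0.775 CPM in control and 1.1, 0.990 and 1.15 CPM in cKO (log2 0.04 ± 0.24 SE, edgeR adjusted p = 0.911). After BMP2 it had 5.12, 4.62, 6.50 and 4.73 CPM against 14.7, 12.8, 11.9 and 15.7 CPM. The groups were far apart, and it was 2.62-fold higher in cKO (log2 1.39 ± 0.15 SE, edgeR adjusted p = 0.000175).

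Pcdhgc4 was even at day 0, with 1.22, 0.771 and 1.26 CPM in control and 1.04, 0.836 and 1.45 CPM in cKO (log2 0.04 ± 0.27 SE, edgeR adjusted p = 0.897). At day 3 it had 39.9, 2.17, 4.46 and 15.3 CPM in control and 1.75, 1.21, 0.592 and 0.489 CPM in cKO. The controls spread over more than a factor of 10, and all of them were above all cKO libraries, of which 3 of 4 reached the filter's minimum (log2 -3.92 ± 0.94 SE, edgeR adjusted p = 0.00874). Without control replicate 1 the log2 difference was -2.85.

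Of the gamma members called higher at day 3, Pcdhga7, Pcdhga12, Pcdhgb1 and Pcdhgb8 lost their call when single libraries were left out (without 2, 6, 7 and 7 of the 8 libraries in turn, at adjusted p up to 0.116). Pcdhga5, called lower (log2 -0.47), lost it without control replicate 2 (adjusted p = 0.0592). At day 0 Pcdhga3 and Pcdhgb1, called higher, lost it without 3 and 4 of the 6 libraries, at adjusted p up to 0.125.

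Across both days, 7 gamma members were called higher each time, which is 7 of the 8 called higher at day 0 and 7 of the 9 at day 3. Pcdhgb6 and Pcdhgc3 were called lower both times. Of the 13758 genes tested on both days, 18.4% were called higher and 17.8% lower both times. Across the 22 gamma members the day 0 and day 3 genotype effects were correlated at 0.51 (Pearson) and 0.73 (Spearman), and without Pcdhgc4 the Pearson value was 0.74 (n = 21). Across the 19 beta members tested on both days the values were 0.61 (Pearson) and 0.57 (Spearman), although most beta members had a more positive effect at day 3. Members share exons and, within a day, libraries, so the values are a description only.

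Whether the genotype effect differed between the days was tested by the interaction of genotype with day over all 14 cultures. Between the days the time in culture, the BMP2 treatment and the deposited table all differ, and their parts cannot be told apart. In the beta cluster 8 of 21 members had a more positive effect at day 3 than at day 0 and 0 a more negative one (11 had an unadjusted p under 0.05, and DESeq2 also called 8 and 0), where in edgeR 9.94% of the 14909 genes tested were called more positive and 6.89% more negative (16.8% in all), and in DESeq2 12.1% and 8.34% (20.4% in all). These 8 were Pcdhb2, Pcdhb3, Pcdhb11, Pcdhb13, Pcdhb15, Pcdhb16, Pcdhb17 and Pcdhb22, some of which were named here only after their values were seen. Their interaction terms ran from 0.98 to 2.04 on the log2 scale.

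Pcdhb22 had an interaction of 1.54 ± 0.22 SE (edgeR adjusted p = 0.000760), moving from lower in cKO at day 0 to higher at day 3. Pcdhb11 had 1.89 ± 0.40 (edgeR adjusted p = 0.00683) and Pcdhb3 2.04 ± 0.49 (edgeR adjusted p = 0.0134). Pcdhb3, Pcdhb11, Pcdhb15, Pcdhb17 and Pcdhb22 kept their call in all 14 fits that left out 1 library, while Pcdhb16 kept it in 9, Pcdhb13 in 6 and Pcdhb2 in 4. The number of beta members called fell to 5 without day 0 control replicate 1, without day 0 control replicate 2 or without day 0 cKO replicate 3.

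In the alpha cluster 9 members were tested for this interaction and Pcdhac2 was called (log2 -2.18 ± 0.45 SE, edgeR adjusted p = 0.00649), in all 14 leave-one-out fits. For Pcdha6 and Pcdha8, with control cultures at 0 on both days, the term could not be estimated. In the gamma cluster Pcdhgc5 (1.34 ± 0.28 SE, edgeR adjusted p = 0.00641) and Pcdhgb6 (0.83 ± 0.21 SE, edgeR adjusted p = 0.0167) were called more positive. Pcdhgc4 was called more negative (-3.98 ± 1.15 SE, edgeR adjusted p = 0.0324). These calls were 1 of 9 alpha and 3 of 22 gamma members tested, where 16.8% of all genes were called, so neither count was above that share. Pcdhgc5 was called in all 14 leave-one-out fits, Pcdhgb6 in 13 and Pcdhgc4 in 7. The number of gamma members called was 1 without day 0 control replicate 2 and 5 without day 3 cKO replicate 4.

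**Figure D5:**
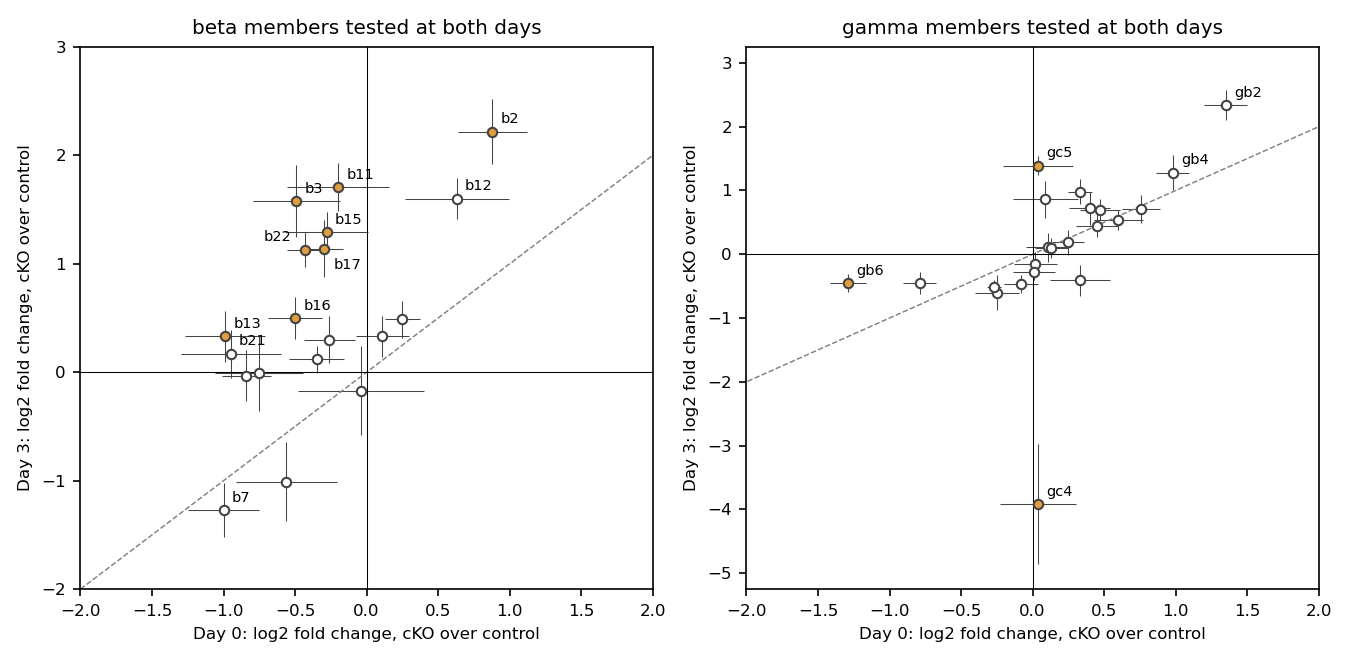
Log2 fold change of cKO over control at day 0 (x axis) and at day 3 (y axis) for beta (19) and gamma (22) members tested on both days, bars are the SE, the dashed line marks equal effects, and filled symbols mark members called in the interaction of genotype with day. Of the 19 beta members 16 lay above the line, while most gamma members lay near it, with Pcdhgc4 far below and Pcdhgc5 above.

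Between the days themselves, most members rose in both genotypes. In control cultures 4 of 9 alpha, 19 of 21 beta and 19 of 22 gamma members tested were called higher at day 3 than at day 0, where 28.1% of all genes were called higher and 28.8% lower (56.9% in all). In cKO cultures 9 of 9, 20 of 21 and 20 of 22 were called higher, where 32.4% of all genes were called higher and 29.8% lower (62.2% in all). Alpha members other than Pcdhac2 passed the filter mostly through their day 3 cKO libraries, so the alpha count in cKO cultures supports nothing by itself. With edgeR 0 members were called lower in either genotype. The median log2 rise in control was 1.40 for beta and 1.74 for gamma, against 0.00 over all genes, and in cKO it was 2.34 and 1.44.

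Pcdhac2 rose by 3.54 ± 0.33 SE on the log2 scale in control (edgeR adjusted p = 1.69e-06) and by 1.36 ± 0.33 in cKO (edgeR adjusted p = 0.00319). Pcdhgc3 rose by 1.71 ± 0.11 in control and by 1.45 ± 0.10 in cKO. Pcdhga8 was called in neither genotype (log2 -0.31 ± 0.18, edgeR adjusted p = 0.158 in control, and -0.10 ± 0.18, adjusted p = 0.627 in cKO).

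In the whole-number counts of cartilage tissue the clusters held too few counts for a test of single members. All members together held 694 counts over the 8 libraries, the highest count of a member in a library was 21, and 16 of the 40 listed members held at most 3 counts in every library. None passed the filter, so edgeR tested 0 of 58 members, where 6.19% of the 8793 genes tested were called (3.15% higher and 3.04% lower). Without the filter 40 members were tested and 0 called, where 4.37% of all genes were called (2.18% higher and 2.19% lower), and 2 had an unadjusted p under 0.05. With DESeq2, 22 members had an adjusted p and 0 were called, where 2.98% of all genes were called (1.93% higher and 1.05% lower), and 1 had an unadjusted p under 0.05. All control libraries were in library pool 1 and all cKO libraries in pool 2, so pool and genotype cannot be told apart in cartilage.

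Pcdhb22 held 11, 6, 9 and 21 counts in control and 6, 10, 4 and 5 in cKO. Pcdhb14 held 4, 8, 8 and 12 against 7, 13, 5 and 7 counts, and Pcdhb17 held 9, 7, 2 and 13 against 2, 8, 1 and 5. The groups overlapped in each of them. Among gamma members, Pcdhgb4 held 6, 2, 1 and 7 counts in control and 7, 5, 8 and 9 in cKO (log2 1.07 without the filter, edgeR adjusted p = 0.235).

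Pcdhgc3 held 3, 2, 3 and 4 counts in control and 0, 1, 0 and 0 in cKO (log2 -2.88 without the filter, edgeR adjusted p = 0.163). The groups did not overlap, but most of these counts are at the floor. Pcdhgc5 held 1, 3, 2 and 4 against 3, 4, 4 and 0 counts. Pcdhga6 held 3, 2, 2 and 1 counts in control and 5, 5, 4 and 3 in cKO, and its scaled levels did not overlap (mean 1.54 against 3.59 CPM). In the estimated-count table its direction was the opposite (2.39 against 1.52 CPM), with overlap. Pcdhac2, the single alpha member listed, had 1 count in control replicate 2 and 0 in the other 7 libraries. Differences in single members were not detectable in these whole-number counts. Cartilage libraries read the 3′ end, where all 14 alpha and 21 of 22 gamma members had under 10% unique stretches. Counts of single alpha and gamma members there also depend on how shared reads were treated.

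Cluster sums in cartilage were 42.6 ± 6.03 CPM in control and 36.0 ± 7.31 in cKO for beta (SD, n = 4), with overlap. The gamma sums were 21.2 ± 4.60 and 32.8 ± 6.45 CPM, also with overlap. A second table of estimated counts for the same libraries gave gamma sums of 182 ± 21.4 CPM in control and 141 ± 16.5 in cKO, so the cKO over control ratio was 1.55 in one table and 0.774 in the other. For beta the ratios were 0.845 and 0.765. The tables differed most in Pcdhgc4, which held 7, 4, 5 and 11 whole-number counts in control and 8, 8, 7 and 5 in cKO, but 252, 253, 203 and 506 estimated counts in control and 152, 181, 158 and 183 in cKO. It made up 71.8 to 82.3% of the gamma estimated counts in control and 53.7 to 72.3% in cKO. With estimated counts, 5 members passed the filter (2 beta, 3 gamma), and Pcdhgc4 was called lower (log2 -0.53, edgeR adjusted p = 0.0364), where 6.74% of 10872 genes were called (3.56% higher and 3.18% lower).

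Genes that act on protocadherin promoters were read from the same fits. Of 23 genes for promoter choice and silencing (CTCF, cohesin and its loaders, methyltransferases and repressors), 7 were called higher and 4 lower at day 0, 0 and 5 at day 3, and 1 and 0 of 22 tested in cartilage (Lrif1). For these and the next 3 lists the shares of all genes called higher and lower were 33.0% and 31.6% at day 0, 25.5% and 22.6% at day 3, and 3.15% and 3.04% in cartilage. The 7 higher at day 0 and the 5 lower at day 3 are near those shares, while the 4 lower at day 0 and the 0 higher at day 3 are below them. The 5 lower at day 3 were Pds5b, Dnmt3a, Ehmt1, Rest and Hdac3. Ctcf, the insulator protein that anchors the promoter loops, had log2 differences of 0.11 ± 0.03 SE at day 0 (edgeR adjusted p = 0.0110), -0.04 ± 0.09 at day 3 (0.738) and 0.47 ± 0.14 in cartilage (0.0684). Rad21, a cohesin subunit, had 0.22 ± 0.03 at day 0 (edgeR adjusted p = 0.000151), 0.03 ± 0.11 at day 3 and 0.28 ± 0.16 in cartilage. Dnmt3b, the enzyme that adds methylation to these promoters, was not called at day 0 (log2 -0.13 ± 0.11) or day 3 (-0.53 ± 0.29), nor was Smchd1, a chromatin protein that represses the clusters (0.04 ± 0.03 and -0.16 ± 0.06), nor the histone methyltransferase Setdb1 (-0.07 ± 0.04 and -0.16 ± 0.09).

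Of 24 genes for intracellular partners and processing of these proteins (focal adhesion kinases, gamma-secretase, the WAVE complex), 12 were called higher and 6 lower at day 0 (all genes 33.0% and 31.6%), and 11 and 3 at day 3 (25.5% and 22.6%). In cartilage 18 were tested and 0 called (edgeR). Of 22 non-clustered protocadherins and related cadherins, 20 were tested at day 0, with 7 called higher and 5 lower, and 16 at day 3, with 5 higher and 3 lower. In cartilage 8 were tested and 0 called.

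The genes beside and between the clusters gave mixed results. Of 15 flanking genes tested at day 0, 4 were called higher and 4 lower, and of 14 at day 3, 6 and 2, with the day 0 counts near the shares of all genes. Taf7, a transcription factor subunit gene between the beta and gamma clusters, was not called in culture (log2 0.13 ± 0.07 and -0.00 ± 0.16 SE) and was higher in cartilage (1.04 ± 0.19, edgeR adjusted p = 0.00354). Diaph1, an actin nucleator gene beyond the gamma cluster, was higher in cKO at day 0 (0.75 ± 0.05, edgeR adjusted p = 2.76e-06) and at day 3 (1.11 ± 0.16, adjusted p = 0.000767). Pcdh1, a non-clustered protocadherin further along, was lower at day 0 (-0.97 ± 0.13, edgeR adjusted p = 0.000115) and higher at day 3 (1.76 ± 0.38, adjusted p = 0.00525).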

How the data were processed

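RNA was measured in 14 culture and 8 cartilage samples, grouped by their labels. The members, gene lists and tests were chosen with earlier results of these data known, so none of them is independent of those results. Culture libraries came from a stranded kit and cartilage libraries from a barcoded 3′ method with molecular identifiers (BRB-seq), per the labels' protocols. For cultures the authors deposited estimated counts per gene, not all whole numbers, in 1 table a day. For cartilage the authors deposited 2 tables, whole-number counts per gene (used as the main values) and estimated counts per gene (an alternative). Estimated counts were rounded to whole numbers. The submitters' processing notes name build GRCm38 for all samples and, for cartilage, UMI-tools 1.1.1, Trim Galore 0.6.7, HISAT2 2.2.1, featureCounts 2.0.1 and DESeq2 1.34.0; which of these made which cartilage table, and the aligner for the cultures, are not given in the sources used here. The number of sample columns left unused was 0.

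Genes were matched by identifier to GENCODE M21 on GRCm38 (34582 of 34866 identifiers in the culture tables, 23884 of 23911 in the cartilage table). Each comparison was fitted over all genes with edgeR 4.0.16 in R 4.3.3 (quasi-likelihood test, TMM scaling, filterByExpr by group at 10 counts and 15 in total, sex as a covariate in cartilage), and a gene was called at a Benjamini-Hochberg adjusted p under 0.05. The fits were tested on simulated data. Standard errors are the log2 difference divided by the root of the F statistic. A member was at the floor in a library with at most 3 counts, for counting error only. As unscaled CPM this is 0.0580 to 0.0719 at day 0, 0.159 to 0.208 at day 3 and 1.59 to 2.73 in cartilage. Bounds are computed against the mean floor of a group's libraries after TMM scaling. DESeq2 1.42.0, RLE scaling, no filter, leaving out each replicate, a replicate block, all cultures in one fit and no sex covariate were tried as alternatives.

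Members were described in full when they were C-type, among the 3 with most reads of a cluster in a setting, or among the 3 largest called changes of a cluster, and others by counts or where their values had drawn attention. Outside the clusters, Dnmt1, Ctcf, Rad21, Dnmt3b, Smchd1, Setdb1, Taf7, Diaph1 and Pcdh1 were named by the same rule. Marker sums cover 9 chondrocyte, 11 neuron, 6 Schwann or glia, 8 muscle, 5 endothelial, 5 fibroblast, 5 blood and 3 osteoclast genes. No member sequences are shown.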

Additional observations from a re-analysis of the deposited data

Results flagged for a closer look

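Of 41 groups of 4 libraries examined for a single library apart from the others, 3 were marked, where chance marks about 1 in 20 groups. The alpha sum in cartilage controls was 0.850 CPM in 1 library and 0 in the others, which is 1 count of Pcdhac2. Pcdhac1 at day 3 stood at 0.122 CPM in cKO replicate 4, which is 2 counts, and at 0 in the other cKO libraries. Pcdhga8 at day 3 had its lowest cKO library at 28.3 CPM, in replicate 1, with the others at 39.0 to 40.6 CPM.

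A genotype effect that differed between day 3 and day 0 was found in 12 of 52 members tested by the interaction test of edgeR. Over all 14909 genes tested 16.8% were called. By cluster the calls were 1 of 9 alpha, 8 of 21 beta and 3 of 22 gamma members. The difference (day 3 minus day 0, log2) was -2.18 for Pcdhac2, 1.32 for Pcdhb2, 2.04 for Pcdhb3, 1.89 for Pcdhb11, 1.29 for Pcdhb13, 1.55 for Pcdhb15, 0.98 for Pcdhb16, 1.41 for Pcdhb17 and 1.54 for Pcdhb22. In the gamma cluster it was 0.83 for Pcdhgb6, -3.98 for Pcdhgc4 and 1.34 for Pcdhgc5.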

How the results depend on the processing

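Of 380 alternative values for named members, 357 kept their direction and side of the threshold (in cartilage, which had no test, moved by less than 1 SD), 11 lost the threshold, 1 (Pcdhb17 at day 0 without control replicate 1) passed it, 1 (Pcdhgc3 in cartilage) moved without changing direction, and 10 changed direction. At day 0, 7 of these 10 were members not called in any of the fits concerned: leaving out 1 library, the log2 difference ran from -0.30 to 0.06 for Pcdhac2 (above 0 without cKO replicate 1 or control replicate 2), from -0.21 to 0.21 for Pcdhgc4 (below 0 without cKO replicate 3 or control replicate 2) and from -0.15 to 0.33 for Pcdhgc5 (below 0 without cKO replicate 3 or control replicate 1 or 3). The estimated-count cartilage table gave the other 3, with cKO minus control at -40.7 CPM for Pcdhgc4 (1.29 in the whole-number table), -0.868 CPM for Pcdhga6 (2.05) and -0.0853 CPM for Pcdhb14 (1.05). It also turned the gamma sum, to -41.2 CPM, and called 1 gamma member; the cause was not tested. Without the filter, 2 alpha members were called at day 0 and 11 at day 3, and DESeq2 called 12 alpha members at day 3 and 2 in the interaction, since more members were tested. With all 14 cultures in one fit, 6 gamma members were called at day 0 in place of 11. With TMM scaling the day 0 cKO minus control sums were -5.02 CPM for beta and 13.2 CPM for gamma. Leaving out each replicate gave 1 to 1 alpha, 5 to 7 beta and 9 to 10 gamma calls at day 0, 6 to 7, 8 to 9 and 9 to 14 at day 3, and 1 to 1, 5 to 8 and 1 to 5 in the interaction. Same-numbered replicates did not deviate together (correlations -0.0634 to 0.140 at day 0 and -0.145 to -0.0640 at day 3), so the numbers are not taken as pairs. With a replicate block 1 alpha, 7 beta and 10 gamma members were called at day 0 and 6, 8 and 11 at day 3. The share of all genes called was not computed for the block, so its counts are a description only. Alpha counts at day 0 and day 3 rest mostly on members that passed the filter through their cKO libraries and support nothing by themselves. The replicate block of the interaction was not run, and RLE scaling, the block, leaving out a replicate and omitting sex gave no value for members in cartilage, where none passed the filter.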
